A study of Mus musculus with 4 samples.

Results

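The MHC class II presentation genes are 10 genes whose products build, load and regulate the class II molecules that show peptides to CD4+ T cells. They were chosen by name among the 52550 Ensembl genes of the table, and all 10 were found and reached 1 FPKM (fragments scaled to transcript length and library size) in every library. RNA-seq was done on macrophages grown from mouse bone marrow (BMDM) for 7 days in 20 ng/mL of M-CSF. The groups were OGT knockout cells after 24 h of IL-4 at 20 ng/mL, WT cells after 24 h of IL-4, OGT knockout cells at 0 h and WT cells at 0 h, with 1 library in each. OGT is the transferase that adds single O-linked N-acetylglucosamine sugars to proteins of the nucleus and cytoplasm. The labels tag all 4 libraries as IL-4 stimulated, and those at 0 h were taken, from their time, to be cells without IL-4. How Ogt was deleted, the mouse strain, and the age and number of animals behind each library are not stated in these sources.

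With 1 library in each group, no difference below could be set against the spread between cultures, and no p-value is given. Time in culture and IL-4 cannot be told apart, since 24 h without IL-4 is not among the groups. Counts past a fold are descriptions of these 4 libraries. A difference is the log2 ratio of FPKM + 1 unless a plain ratio is named. The shares over all genes cover those that reached 1 FPKM in any library compared. Shares over a pair of comparisons cover genes that did so in each of the pair. The RNA came from whole cultures, so fewer cells of a type and less RNA per cell cannot be told apart.

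Class II molecules are pairs of an alpha and a beta chain, I-A (H2-Aa with H2-Ab1) and I-E (H2-Ea with H2-Eb1) in the mouse. The chains assemble in the endoplasmic reticulum around the invariant chain encoded by Cd74, which blocks the peptide groove and carries them to endosomes. There cathepsin S (Ctss) trims the invariant chain, the thiol reductase GILT (Ifi30) opens disulphide bonds of antigens, and H2-DM (H2-DMa with H2-DMb1 or H2-DMb2) exchanges the last invariant chain fragment for peptide. Transcription of the chains, of Cd74 and of H2-DM depends on the coactivator CIITA, which does not bind DNA itself but docks on RFX, CREB and NF-Y proteins at the X and Y boxes of these promoters. Macrophages carry low to moderate class II that cytokines raise, interferon-gamma being the best known.

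The X and Y boxes are shown first because they are the shared promoter feature of the class II genes. RefSeq promoter windows (GRCm38.p6, 250 bases before to 50 after a gene's start) were matched for 7 of the 10 members. The windows of H2-Aa (chr17:34287774-34288073, − strand), H2-Eb1 (chr17:34305617-34305916, + strand), H2-DMb1 (chr17:34152941-34153240, + strand) and H2-DMb2 (chr17:34144999-34145298, + strand) are given below 5′ to 3′. Capitals mark the Y box letters TGATTGG and, where found 15 to 40 bases before them on the same strand, the X box core letters GNAAC.
H2-Aa: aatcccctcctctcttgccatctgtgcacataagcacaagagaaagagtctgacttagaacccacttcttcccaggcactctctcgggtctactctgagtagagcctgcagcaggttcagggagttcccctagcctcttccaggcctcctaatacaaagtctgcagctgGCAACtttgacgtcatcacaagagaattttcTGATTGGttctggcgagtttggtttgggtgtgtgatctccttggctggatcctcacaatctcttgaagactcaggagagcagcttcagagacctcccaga
H2-Eb1: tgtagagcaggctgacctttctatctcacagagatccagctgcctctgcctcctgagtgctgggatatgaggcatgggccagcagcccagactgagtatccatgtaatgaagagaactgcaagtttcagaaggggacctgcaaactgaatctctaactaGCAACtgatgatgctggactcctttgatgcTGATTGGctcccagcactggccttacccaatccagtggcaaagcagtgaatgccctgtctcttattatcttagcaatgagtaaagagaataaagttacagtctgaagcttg
H2-DMb1: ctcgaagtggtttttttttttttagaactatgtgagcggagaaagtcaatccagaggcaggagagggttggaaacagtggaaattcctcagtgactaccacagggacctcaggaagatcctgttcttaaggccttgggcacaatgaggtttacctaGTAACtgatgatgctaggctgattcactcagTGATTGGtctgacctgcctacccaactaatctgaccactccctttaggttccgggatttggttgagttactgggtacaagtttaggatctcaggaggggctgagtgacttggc
H2-DMb2: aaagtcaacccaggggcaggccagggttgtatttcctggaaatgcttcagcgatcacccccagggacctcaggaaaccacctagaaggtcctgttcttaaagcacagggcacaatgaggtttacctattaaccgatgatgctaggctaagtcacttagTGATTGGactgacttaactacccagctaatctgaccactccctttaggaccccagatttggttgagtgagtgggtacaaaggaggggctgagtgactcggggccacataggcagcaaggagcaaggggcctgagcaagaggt

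The Y box stood 50 bases before the annotated start in H2-Aa, 61 in H2-Eb1, 63 in H2-DMb1 and 92 in H2-DMb2. The X core lay 26 bases before it in H2-Aa, 25 in H2-Eb1 and 26 in H2-DMb1. The H2-DMb2 window held the Y box and 1 match to GNAAC, but not as a pair at that spacing. Where H2-DMb1 has GTAAC, 26 bases before the Y box, H2-DMb2 reads ttaac, which differs in the first letter. Both strands of all 32851 RefSeq windows of this length were searched, and TGATTGG was found in 7.82% of them, GNAAC in 84.8% and the spaced pair in 0.715%. These letters were chosen after the windows had been read, and a match describes the sequence and not a bound site. The 2 windows of H2-DMa (chr17:34122582-34122881 and chr17:34125268-34125567, + strand) held neither TGATTGG nor the pair. Both lie inside the annotated span of the gene, 34119541 to 34139101. Sequence before any other start of H2-DMa was not searched, so a pair elsewhere at this gene could have been missed.

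The same pair occurred in the windows of class II genes that stayed under 1 FPKM in every library. It is shown with 5 bases on each side for H2-Oa (chr17:34092298-34092345, + strand) and H2-Ob (chr17:34238813-34238857, + strand), the chains of the H2-DM inhibitor H2-O, and for H2-Eb2 (chr17:34325538-34325584, + strand).
H2-Oa: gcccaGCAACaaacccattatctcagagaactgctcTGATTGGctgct
H2-Ob: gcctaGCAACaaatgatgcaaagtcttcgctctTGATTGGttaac
H2-Eb2: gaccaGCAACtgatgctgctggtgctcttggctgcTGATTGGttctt

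H2-Oa was at 0.038 and 0.18 FPKM in the knockout and WT at 24 h, and at 0.39 and 0.64 in the knockout and WT at 0 h. H2-Ob lay between 0.14 and 0.51 FPKM in the 4 libraries and H2-Eb2 between 0 and 0.23. H2-Ea, the partner of H2-Eb1, is annotated as the pseudogene H2-Ea-ps and was listed at 0 in all 4 libraries. In C57BL/6 mice, as background, this gene lacks its promoter and no I-E reaches the surface. The strain used here is not known, and reads from another class II haplotype could map less well to this reference.

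Ctss and Ifi30 gave a different picture. The windows of Ctss (chr3:95526536-95526835, + strand) and Ifi30 (chr8:70766614-70766913, − strand) held no TGATTGG. That of Ctss held an interferon-type element, GAAA repeated after a gap of 2 bases, beginning 21 bases before the start (capitals). This repeat was found in 3.44% of all windows on either strand.
Ctss: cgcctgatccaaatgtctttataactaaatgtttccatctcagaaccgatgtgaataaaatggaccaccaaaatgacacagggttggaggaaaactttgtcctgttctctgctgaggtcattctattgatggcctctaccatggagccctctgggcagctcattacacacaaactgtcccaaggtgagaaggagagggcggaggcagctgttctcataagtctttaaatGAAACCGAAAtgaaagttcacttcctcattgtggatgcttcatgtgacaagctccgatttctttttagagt
Ifi30: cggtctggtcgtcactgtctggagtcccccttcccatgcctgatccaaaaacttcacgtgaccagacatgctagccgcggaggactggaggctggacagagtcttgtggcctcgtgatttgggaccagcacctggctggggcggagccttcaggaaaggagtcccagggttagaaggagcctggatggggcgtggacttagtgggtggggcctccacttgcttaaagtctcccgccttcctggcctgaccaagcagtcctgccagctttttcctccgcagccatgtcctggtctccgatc

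Together the 10 genes took 3.36% of all FPKM in the knockout and 2.77% in WT at 24 h, and 2.49% in the knockout and 2.11% in WT at 0 h. Without Ctss, the highest member and the one with the smallest differences, the shares were 1.71% and 1.23% at 24 h and 0.887% and 0.677% at 0 h, in the same order of genotypes. Levels thus stepped down from the knockout at 24 h through WT at 24 h and the knockout at 0 h to WT at 0 h. That full order was found in 7 members, namely Cd74, H2-Aa, H2-Ab1, H2-DMa, H2-DMb1, H2-DMb2 and Ciita, and in 7.95% of 12000 genes. Ctss, Ifi30 and H2-Eb1 departed from it.

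**Figure D1:**
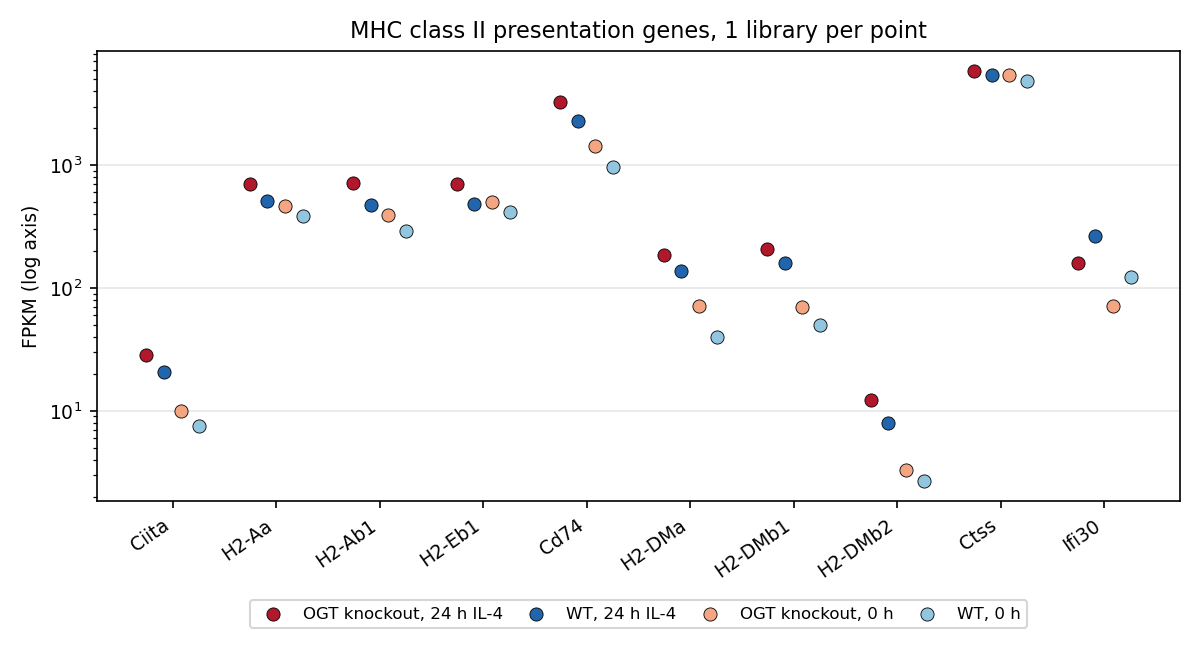
FPKM on a log axis for each of the 10 genes, with 1 point for each of the 4 libraries (OGT knockout and WT at 24 h of IL-4, OGT knockout and WT at 0 h). Most genes step down from the knockout at 24 h to WT at 0 h, Ctss is nearly flat between 4855 and 5829 FPKM, and Ifi30 is lower in the knockout than in WT at both times.

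The regulator Ciita (ENSMUSG00000022504, chromosome 16, 10480059 to 10528418, + strand) was measured at 28.6 FPKM in the knockout and 20.7 in WT at 24 h, and at 9.97 in the knockout and 7.53 in WT at 0 h. Both 24 h libraries lay above both 0 h libraries, and the knockout above WT at each time. The plain ratio of 24 h to 0 h was 2.87 in the knockout (log2 1.43) and 2.74 in WT (1.34).

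Among the chains, H2-Aa (ENSMUSG00000036594, chromosome 17, 34282744 to 34287823, − strand) was at 706 FPKM in the knockout and 507 in WT at 24 h, and at 466 in the knockout and 384 in WT at 0 h. H2-Ab1 (ENSMUSG00000073421, chromosome 17, 34257689 to 34269419, + strand) was at 713 and 469.9 FPKM at 24 h, and at 394 and 290.1 at 0 h, the knockout first in each pair. H2-Eb1 (ENSMUSG00000060586, chromosome 17, 34305867 to 34316674, + strand) was at 702 FPKM in the knockout and 488 in WT at 24 h, and at 505 in the knockout and 419.6 in WT at 0 h. All 3 chain genes were highest in the knockout at 24 h and lowest in WT at 0 h. H2-Eb1 alone of the 3 was higher in the knockout at 0 h than in WT at 24 h.

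The invariant chain gene Cd74 (ENSMUSG00000024610, chromosome 18, 60803848 to 60812652, + strand) had the widest spread in FPKM. It stood at 3303 FPKM in the knockout and 2279 in WT at 24 h, and at 1422 in the knockout and 974 in WT at 0 h. By rank among all genes it was 11th in the knockout and 21st in WT at 24 h, against 29th in the knockout and 37th in WT at 0 h.

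For the peptide exchange factor, H2-DMa (ENSMUSG00000037649, chromosome 17, 34119541 to 34139101, + strand) was at 187 FPKM in the knockout and 136 in WT at 24 h, and at 71.2 in the knockout and 40.2 in WT at 0 h. H2-DMb1 (ENSMUSG00000079547, chromosome 17, 34153072 to 34160230, + strand) was at 209.7 and 160.3 FPKM at 24 h, and at 70.0 and 49.5 at 0 h, again with the knockout first. H2-DMb2 (ENSMUSG00000037548, chromosome 17, 34143307 to 34151555, + strand) was far lower, at 12.3 and 7.95 FPKM at 24 h and 3.31 and 2.68 at 0 h in the knockout and WT. Both beta genes thus followed the same order of libraries. H2-DMb2 made up 4.52% to 5.55% of their summed FPKM. Their annotated transcripts were 95.3% identical over 1093 aligned bases, and 21.2% of the 50-base stretches of H2-DMb2 also occur in H2-DMb1, so the split of reads between them is uncertain.

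Of the processing enzymes, Ctss (ENSMUSG00000038642, chromosome 3, 95526786 to 95556403, + strand) was at 5829 FPKM in the knockout and 5431 in WT at 24 h, and at 5452 in the knockout and 4855 in WT at 0 h. It ranked between 5th and 7th of all genes in the 4 libraries. Ifi30 (ENSMUSG00000031838, chromosome 8, 70762774 to 70766663, − strand) was at 161 FPKM in the knockout and 268 in WT at 24 h, and at 71.5 in the knockout and 123 in WT at 0 h. It was the one member with the WT library above the knockout library at both times.

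The first pair of comparisons asked how RNA levels of the class II presentation genes changed over 24 h of IL-4. This cytokine is used to polarise macrophages toward the alternative (M2) state. In the knockout, 6 of 10 members were at least 2-fold higher at 24 h than at 0 h, where 5.16% of 11577 genes were. The same 6 members (Cd74, H2-DMa, H2-DMb1, H2-DMb2, Ciita and Ifi30) were at least 2-fold higher in WT, where 4.76% of 11687 genes were. Being 2-fold higher in both genotypes was found for 3.76% of 11264 genes. All 10 members had positive differences in both genotypes, beside 44.6% of genes, and none was 2-fold lower, beside 5.99% of genes in the knockout and 6.26% in WT.

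Within the group, Cd74, the H2-DM genes, Ciita and Ifi30 had larger ratios than the chain genes, and Ctss had smaller ones. H2-DMa was 2.63 times its 0 h value in the knockout (log2 1.38) and 3.39 times in WT (1.74). H2-DMb1 was 2.998 times its 0 h value in the knockout (1.57) and 3.24 times in WT (1.67). Cd74 had nearly equal ratios, 2.32 in the knockout (1.22) and 2.34 in WT (1.23).

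The chain genes stayed under 2-fold. H2-Ab1 reached a ratio of 1.81 in the knockout (0.85) and 1.62 in WT (0.69), H2-Aa 1.51 (0.60) and 1.32 (0.40), and H2-Eb1 1.39 (0.47) and 1.16 (0.22). Ctss was close to flat, with ratios of 1.07 in the knockout (0.10) and 1.12 in WT (0.16). The median over the 10 members was 1.19 in the knockout and 1.17 in WT, against 0.03 and 0.02 over all genes tested.

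**Figure D2:**
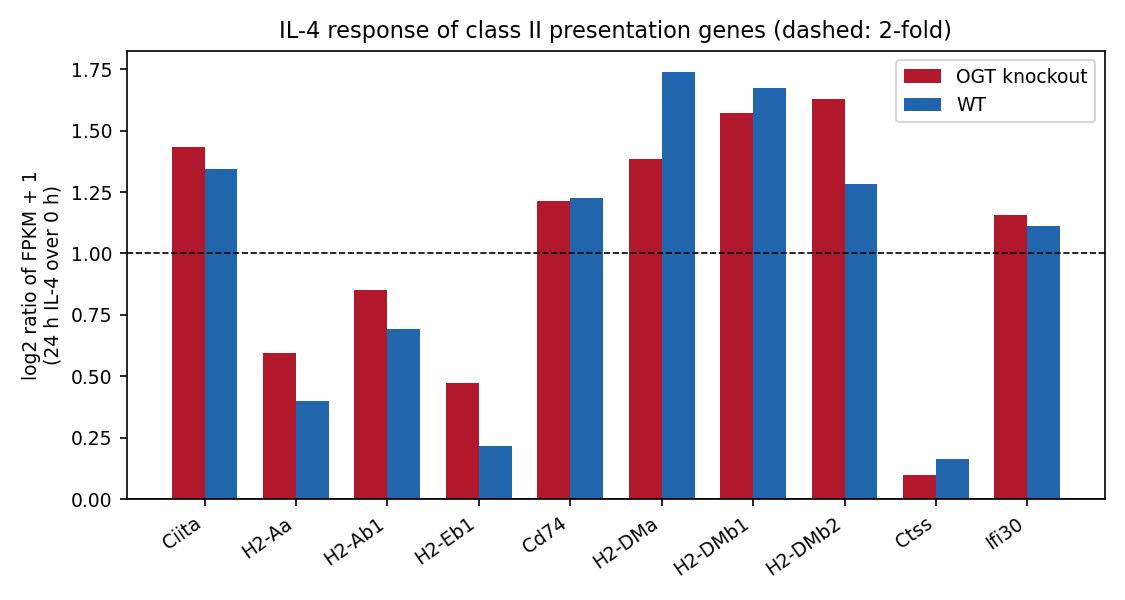
Bars give the log2 ratio of FPKM + 1, 24 h of IL-4 over 0 h, for each gene in the OGT knockout and in WT (1 library per group and time, no error bars possible). Ciita, Cd74, the 3 H2-DM genes and Ifi30 pass the dashed 2-fold line in both genotypes, and the 3 chain genes and Ctss stay below it.

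Because FPKM is scaled to length, the levels of different genes can be set against each other in one library. The 24 h libraries held 1.56 times as much Cd74 as the 3 chain genes summed in both genotypes, while the ratio at 0 h was 1.04 in the knockout and 0.891 in WT. H2-DMa came to 26.5% of H2-Aa in the knockout and 26.9% in WT at 24 h, and to 15.3% in the knockout and 10.5% in WT at 0 h. Both ratios were thus close between genotypes at 24 h and higher in the knockout at 0 h. H2-Ab1 relative to its partner H2-Aa was 1.01 in the knockout and 0.926 in WT at 24 h, and 0.846 in the knockout and 0.755 in WT at 0 h. The ratio of H2-Eb1 to H2-Aa moved the other way, at 0.995 and 0.961 at 24 h and 1.08 and 1.09 at 0 h in the knockout and WT.

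**Figure D3:**
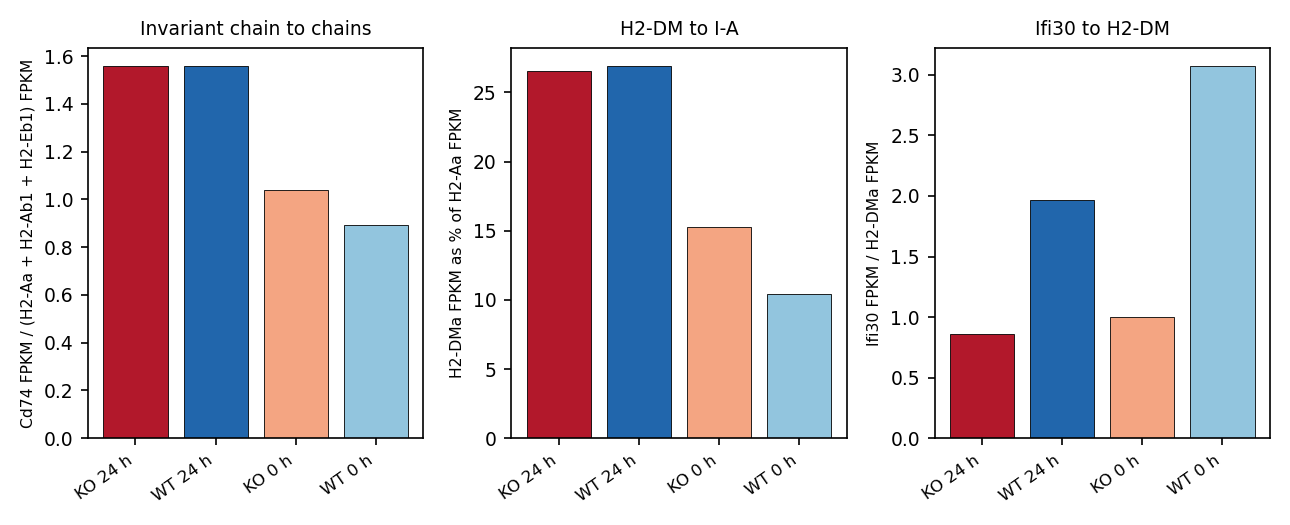
Ratios of FPKM in each of the 4 libraries (bars start at 0, 1 library each): Cd74 over the summed chain genes, H2-DMa as a percent of H2-Aa, and Ifi30 over H2-DMa. The left and middle ratios are higher at 24 h and near equal between genotypes there, and Ifi30 relative to H2-DMa is lower in the knockout at both times.

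The next comparisons asked how the knockout differed from WT. The targeted gene Ogt was at 14.5 FPKM in the knockout and 29.8 in WT at 24 h, and at 14.2 in the knockout and 27.4 in WT at 0 h, so transcripts of the gene remained in the libraries labelled knockout. No class II presentation gene differed 2-fold between genotypes at either time, where the knockout was 2-fold higher for 0.832% of genes and 2-fold lower for 0.619% at 24 h, and for 0.88% and 0.871% at 0 h. The differences were smaller and ran mostly one way. At 24 h 9 of 10 members were higher in the knockout, beside 41.4% of 11302 genes, and at 0 h the same 9, beside 40.5% of 11479 genes. The knockout was higher at both times in 25.1% of 10781 genes.

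A lower mark, 25% higher, was chosen after these values were seen, to describe sizes. At 24 h 8 of 10 members passed it in the knockout, beside 8.31% of genes. At 0 h 5 did, beside 7.77%, and the same 5 (Cd74, H2-Ab1, H2-DMa, H2-DMb1 and Ciita) passed at both times, beside 2.69%. The comparisons at 24 h and at 0 h share no library.

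At 24 h the largest positive difference among members was that of H2-Ab1, at 1.52 times WT (log2 0.60), followed by H2-DMb2 (0.57), Cd74 and H2-Eb1 (0.53 each), H2-Aa (0.48), H2-DMa (0.46), Ciita (0.45) and H2-DMb1 (0.39). Differences of the 8 genes lay within 0.39 to 0.60, a narrower band than the 0.23 to 0.81 seen for them at 0 h. At 0 h H2-DMa led at 1.77 times WT (0.81), then Cd74 (0.54), H2-DMb1 (0.49), H2-Ab1 (0.44) and Ciita (0.36), with H2-Aa (0.28), H2-Eb1 (0.27) and H2-DMb2 (0.23) lower. Ctss was at 0.10 at 24 h and 0.17 at 0 h. The median over the 10 members was 0.47 at 24 h and 0.32 at 0 h, against −0.05 over all genes tested at each time.

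Ifi30 stood apart from the rest of the pathway. The knockout held 0.600 of the WT level at 24 h (log2 −0.73) and 0.579 at 0 h (−0.78), although the ratio of 24 h to 0 h was 2.25 in the knockout and 2.17 in WT. A difference of that mark in the other direction (a log2 of −0.32 or less) at both times was found for 4.78% of genes. Relative to H2-DMa, Ifi30 was at 0.857 in the knockout and 1.96 in WT at 24 h, and at 1.00 in the knockout and 3.07 in WT at 0 h. Another annotated transcript, 6330537M06Rik on the opposite strand, overlaps 8.66% of its exon bases and was at 0.72 FPKM or less in every library.

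**Figure D4:**
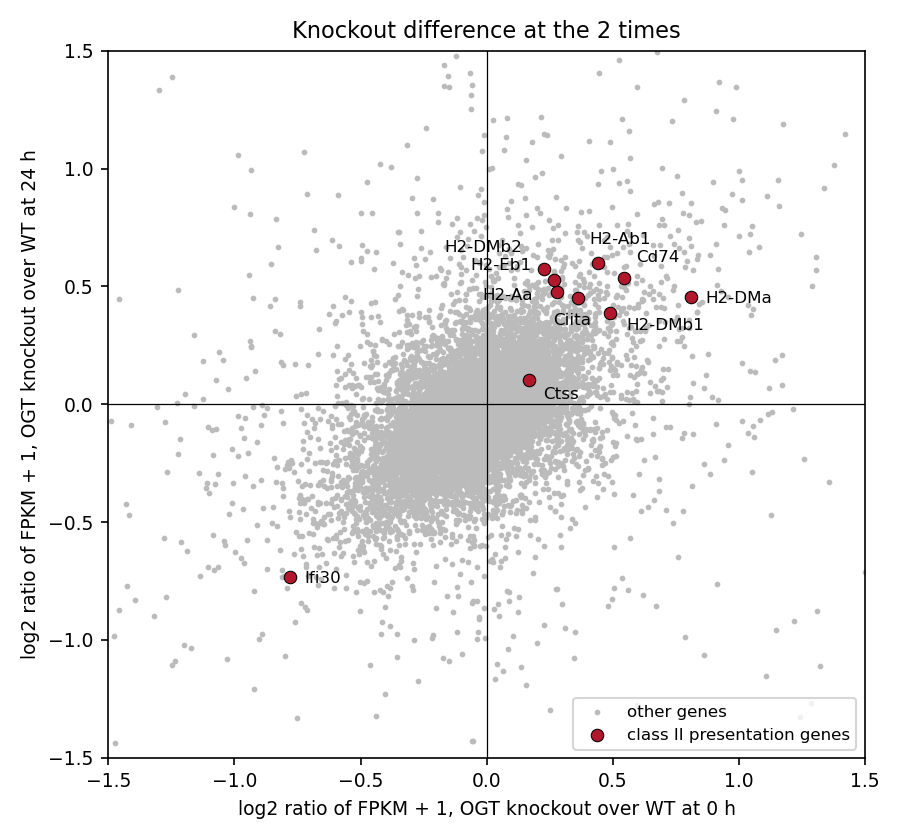
Each point is a gene: log2 ratio of FPKM + 1 in the OGT knockout over WT at 0 h (horizontal) and at 24 h (vertical), for 10781 genes of which 64 lie outside the axes. The class II genes Cd74, H2-Aa, H2-Ab1, H2-Eb1, H2-DMa, H2-DMb1, H2-DMb2 and Ciita sit together in the upper right, Ctss lies near the origin, and Ifi30 is at the lower left.

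The difference between the genotypes' IL-4 responses was small for every member. The knockout response minus the WT response lay between −0.35 (H2-DMa) and 0.35 (H2-DMb2) on the log2 scale, with 6 of 10 members above 0, beside 50.9% of 12000 genes. The median was 0.07 over members and 0.00 over all genes. The chain genes were at 0.26 (H2-Eb1), 0.20 (H2-Aa) and 0.16 (H2-Ab1), and Cd74 at −0.01. With 1 library a group this interaction could not be tested.

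Other genes of the pathway are described list by list. The 22 genes for the class II enhanceosome and its regulators all reached 1 FPKM. Only the transcription factor gene Irf4 was 2-fold higher with IL-4, in each genotype, as were 3.76% of all genes tested. It stood at 58.4 FPKM in the knockout and 46.0 in WT at 24 h, against 3.33 in the knockout and 1.97 in WT at 0 h.

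The interferon regulatory factor genes Irf1 (log2 −1.14) and Irf8 (−1.09) were 2-fold lower at 24 h in the knockout, and in WT they were at −0.67 and −0.92. The RFX subunits, which bind the X box, stayed low: Rfx5 between 2.52 and 3.61 FPKM, Rfxap between 3.35 and 4.15, and Rfxank between 2.20 and 2.99. Stat6, which carries the IL-4 signal, lay between 50.2 and 52.3 FPKM, and the lineage factor Spi1 between 81.9 and 100.5. Between genotypes, 1 gene of the list passed 2-fold: Creb1, an X box binding factor, was at 4.47 FPKM in the knockout and 1.17 in WT at 0 h (1.34), and at 4.93 and 2.14 at 24 h (0.92). The list's median with IL-4 was 0.01 in the knockout and −0.02 in WT.

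Of 14 endosomal proteases and cystatins, 1 was 2-fold higher with IL-4 in each genotype, beside 3.76% of all genes tested. It was the cystatin gene Cst7 (log2 2.19 in the knockout and 1.73 in WT). Ctsc, which activates granule proteases, was 2-fold lower in both (−1.39 and −1.25), and Ctsh in the knockout (−1.22, WT −0.81). Over all genes tested, 5.99% were 2-fold lower in the knockout and 6.26% in WT. Ctsb ranged from 1894 to 2294 FPKM, Ctsl from 79.9 to 108, and Ctsz from 709 to 1159. No gene of this list passed 2-fold between genotypes. Cst3, which encodes the cathepsin inhibitor cystatin C, was at 1081 FPKM in the knockout and 596 in WT at 24 h (0.86), and at 1012 in the knockout and 632 in WT at 0 h (0.68).

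Of 16 trafficking and turnover genes, 3 were 2-fold higher with IL-4 in both genotypes, beside 3.76% of all genes tested. They were the tetraspanin gene Cd9 (1.86 in the knockout and 1.18 in WT), the clathrin adaptor subunit gene Ap2m1 (1.62 and 1.75) and the Rab7 effector gene Rilp (1.06 and 1.13). March1, the ubiquitin ligase that sends class II for degradation, was at 14.6 FPKM in the knockout and 13.4 in WT at 24 h, and at 18.7 in the knockout and 17.6 in WT at 0 h. Cd83, known to oppose March1 in dendritic cells, hardly differed with IL-4 but was higher in the knockout, at 65.8 FPKM against 39.97 in WT at 24 h (0.71) and 69.2 against 39.2 at 0 h (0.80).

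Of 13 class I genes, which present cytosolic peptides to CD8+ T cells, 8 had differences below 0 with IL-4 in each genotype. Over all genes tested, 5480 of 11577 were below 0 in the knockout and 5613 of 11687 in WT. Of the 13, only the endoplasmic reticulum chaperone gene Calr was 2-fold higher with IL-4 in both genotypes (1.40 in the knockout and 1.50 in WT), beside 3.76% of genes. The proteasome subunit gene Psmb10 was 2-fold higher in WT only (1.15, knockout 0.61). Nlrc5, the class I counterpart of Ciita, was at 4.82 FPKM in the knockout and 4.39 in WT at 24 h, and at 11.6 in the knockout and 8.39 in WT at 0 h. It was the 1 gene of the list 2-fold lower with IL-4 in the knockout (−1.11, WT −0.80). The list's median with IL-4 was −0.25 in the knockout and −0.10 in WT. Between genotypes no class I gene passed 2-fold. At 24 h the knockout was higher for 3 of 13 (median −0.07), beside 41.4% of all genes tested. At 0 h it was higher for 10 of 13 (median 0.16), beside 40.5%, and most class II genes were higher there too.

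**Figure D5:**
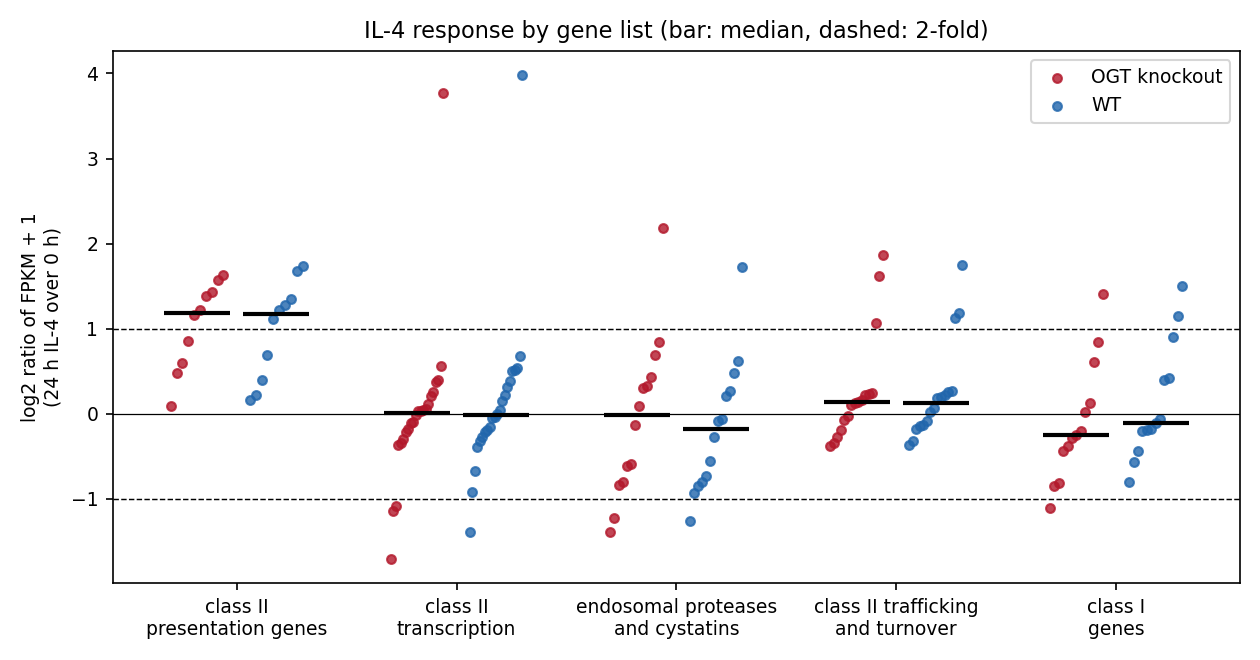
Each point is 1 gene's log2 ratio of FPKM + 1, 24 h of IL-4 over 0 h, in the OGT knockout and in WT, by gene list; black bars are medians and dashed lines mark 2-fold. The class II presentation genes have medians of 1.19 in the knockout and 1.17 in WT, while those of the other lists lie between −0.25 and 0.13.

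The labelled cell type was read against its markers. All 9 macrophage markers were at 28.5 FPKM or more in every library, with Csf1r at 610.0 to 885 and Cd68 at 965 to 1009. Their sum was 7016 FPKM in the knockout and 7097 in WT at 24 h, and 16305 in the knockout and 19395 in WT at 0 h, most of it Lyz2. With IL-4, 5 of the 9 were 2-fold lower in the knockout and 4 in WT, beside 5.99% and 6.26% of all genes tested. They were Lyz2 (log2 −1.54 in the knockout and −1.84 in WT), Adgre1 (−1.44 and −1.67), Fcgr1 (−2.27 and −2.24) and Mertk (−1.12 and −1.22) in both, and Itgam in the knockout (−1.78, WT −0.88). Itgam was also 2-fold lower in the knockout than in WT at 24 h, at 31.1 FPKM against 66.7 (−1.07). Of 12 dendritic cell markers, 8 were under 1 FPKM in every library, Flt3, Xcr1, Clec9a and Zbtb46 among them. Itgax was at 353 FPKM in the knockout and 355 in WT at 24 h, and at 15.1 in the knockout and 35.1 in WT at 0 h, and Batf3 was at 25.2 and 27.0 at 24 h and 2.10 and 2.70 at 0 h. Without Itgax and Batf3 the dendritic cell sum was 2.65 FPKM in the knockout and 2.08 in WT at 24 h, and 5.06 in the knockout and 5.46 in WT at 0 h. Of 9 B cell markers, 7 were under 1 FPKM, with Ms4a1 and Pax5 at 0.04 FPKM or less. The other two were Cd79b, at 2.93 FPKM in the knockout and 4.74 in WT at 24 h and at 9.12 in the knockout and 13.7 in WT at 0 h, and Cd22, between 6.54 and 9.29 in the 4 libraries.

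Neutrophil markers moved with both contrasts. Their sum over 8 genes was 569 FPKM in the knockout and 904 in WT at 24 h, and 1675 in the knockout and 2725 in WT at 0 h, the reverse of the order of the class II genes. Most of it was S100a9 and S100a8, at 377 and 134 FPKM in the knockout at 24 h and 1769 and 721 in WT at 0 h. Ly6g, another of the 8, was at 0.65 FPKM or less in every library. T cell markers other than Cd4 were at 0.24 FPKM or less. Cd4 was at 2.06 FPKM in the knockout and 2.85 in WT at 24 h, and at 18.8 in the knockout and 24.6 in WT at 0 h. The sum of 6 basophil or mast cell markers was 0.712 in the knockout and 4.43 in WT at 24 h, and 1.19 in the knockout and 6.54 in WT at 0 h. The part of any such cells in the class II differences was not tested.

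Genes with a pattern like that of the chains were sought among 5897 other genes at a mean of 5 FPKM or more. Protein-coding and long noncoding genes were kept, while predicted genes (Gm or Rik names), pseudogenes and small RNAs were left out. Likeness was the Euclidean distance over the 4 libraries from the mean centred log2 pattern of H2-Aa, H2-Ab1, H2-Eb1 and Cd74. The nearest were Med29 (0.11), Mvd (0.13), Tmem37 (0.14), Pak4 (0.14) and Cd52 (0.15). Cd52, which encodes a small surface glycoprotein of leukocytes, was at 771 FPKM in the knockout and 610.2 in WT at 24 h, and at 463 in the knockout and 354 in WT at 0 h. Over 4 libraries likeness is easily met. H2-Ab1, itself part of that mean, was at 0.09, and none of the 5897 genes lay closer. Of the other genes in the mean, H2-Aa (0.23) had 11 genes closer, H2-Eb1 (0.37) had 123 and Cd74 (0.52) had 540. Ciita, which is not in the mean, was at 0.68 with 1369 genes closer.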

How the data were processed

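The authors deposited 1 table of 52550 Ensembl genes in 4 libraries, with no unit in its header. STAR and StringTie on GRCm38 are named in the submitters' processing notes, without versions. The deposited values were read as FPKM because its column totals are unequal (338704 to 353093). Strandedness and annotation release are not given in these sources. Per the labels' protocols, a SMARTer kit and 1 µg of RNA were used for each library. Genes were matched by Ensembl identifier to GENCODE M21 (GRCm38), which gave symbols for 52403 genes and positions counted from 1, and genes sharing a symbol were summed.

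Differences were log2 ratios of FPKM + 1 for genes that reached 1 FPKM in any library compared, with 2-fold as the mark. The depth is not stated. From the smallest values of genes with 1 exon, sought within a preset range, about 20.0 to 21.7 fragments stood for 1 FPKM and 1 kb, an estimate and not a count. The member with the least depth was then H2-DMb2, with about 102 to 440 fragments. The calculation was tested on simulated data. Exons of Brd2 (on the other strand) overlap 10.4% of the exon bases of H2-DMa, and those of Dexi 3.45% of Ciita.

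Named were the 10 members, genes of the lists past 2-fold or picked by their role, and the 5 nearest patterns, and some list genes are not reported here. The members and lists were chosen with earlier results of these data known. Python 3.11.15, pandas 2.3.3 and biopython 1.88 were used.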

Additional observations from a re-analysis of the deposited data

How the results depend on the processing

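The 7 alternatives were pseudocounts of 0.1 and 5, no filter, a filter at 5 FPKM, median-of-ratios scaling, rescaling each library to one fixed total without mitochondrially encoded genes, and H2-DMb1 summed with H2-DMb2. No member's difference changed sign under any of them. H2-DMb2 came under 2-fold for IL-4 in WT with a pseudocount of 5 (0.75), and Ogt at 24 h passed 2-fold lower with a pseudocount of 0.1 (−1.04) and after rescaling to the fixed total (−1.03). Counts over all genes moved more: genes 2-fold higher with IL-4 numbered 597 in the knockout and 556 in WT, and 963 and 845 with a pseudocount of 0.1, 272 and 253 with one of 5, and 1025 and 940 after rescaling to the fixed total. That total is above each library's own, so the same pseudocount and filter weigh less there and 14359 and 14326 genes were tested for the IL-4 responses, against 11577 and 11687. Genes 2-fold higher in the knockout numbered 94 at 24 h and 101 at 0 h, and 209 and 202, 23 and 23, and 323 and 338 under the same settings. Genes past it upward in the difference of responses numbered 152, and 372, 36 and 519. Leaving out a replicate was not possible, since each group has 1 library. No paired analysis was possible because each group holds 1 library and the labels carry no replicate numbers. Depth limits H2-DMb2 the most.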

Other observations

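Mir5107, a microRNA gene that shares 12 exon bases with Cd74 on the same strand, was listed at 19.2 FPKM in the knockout and 12.1 in WT at 24 h, and at 5.97 in the knockout and 4.87 in WT at 0 h, the order of libraries seen for Cd74. Fragments of Cd74 and of the microRNA gene cannot be told apart over those bases. Cst3 and Cd83 were among the pathway genes outside the 10 whose knockout differences, 0.86 and 0.71 at 24 h, were above the largest positive one among the class II presentation genes at that time (0.60, H2-Ab1), and both differed by less than 0.1 on the log2 scale with IL-4 in each genotype.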
